A study of Mus musculus with 6 samples.

Results

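Complement is a cascade of blood and tissue proteins that marks microbes and damaged cells and recruits leukocytes. The data described here are the RNA levels of 9 complement genes, 5 activators (C3, C4b, C2, Cfb and C1ra), 2 regulators (Cfi and Cd55) and 2 receptors (C3ar1 and C5ar1), among 17680 genes counted in mouse kidney. The 9 genes were listed by symbol, all 9 were found in the count tables, and all 9 passed the filter on low counts. Kidneys came from wild-type (WT) C57BL/6 mice aged 6 to 8 weeks, 24 h after 1 intraperitoneal injection of lipopolysaccharide (LPS, a bacterial outer membrane component, 3 mice) or of phosphate-buffered saline (PBS, the Control group, 3 mice). The dose of LPS is not given in the sources used here. The comparison of the groups asks, per the series' design text, how the transcripts of the kidney differ in this model of septic injury.

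In the classical pathway C1r, encoded in mice by C1ra, activates C1s, which cleaves C4 and C2 into a C3 convertase. In the alternative pathway factor B, encoded by Cfb, takes the place of C2. Both convertases cleave C3 into C3b, which binds to surfaces, and C3a, a peptide sensed by the receptor C3ar1, while C5ar1 senses the C5a peptide of C5. Factor I, encoded by Cfi, cuts C3b and C4b, and Cd55, also called decay-accelerating factor, takes convertases apart on the cell surface. Most circulating complement is made in the liver, and kidney tubule cells and leukocytes are known to make some components as well.

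The stretches before the members' gene starts are shown as a description, and shared control of the members was not tested. RefSeq's promoter table (GRCm38.p6) held 5 of the 9 members, namely C3, C1ra, Cd55, C3ar1 and C5ar1. The 250 bases before the start were searched on both strands for the NF-kB consensus, GAS (TTCNNNGAA), C/EBP (TTGCNNAA), AP-1 (TGANTCA) and the IRF core (GAAANNGAA). The sequences of the member with the largest rise, both receptors and the member that fell follow in the direction of the gene, with matches in capitals.
C3, chr17:57228137-57228386, minus strand: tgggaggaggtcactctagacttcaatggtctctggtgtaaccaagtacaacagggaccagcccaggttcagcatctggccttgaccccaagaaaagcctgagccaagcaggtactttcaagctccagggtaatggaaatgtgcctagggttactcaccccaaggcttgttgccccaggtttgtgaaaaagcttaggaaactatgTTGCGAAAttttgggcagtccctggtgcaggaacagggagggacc
C3ar1, chr6:122856158-122856407, minus strand: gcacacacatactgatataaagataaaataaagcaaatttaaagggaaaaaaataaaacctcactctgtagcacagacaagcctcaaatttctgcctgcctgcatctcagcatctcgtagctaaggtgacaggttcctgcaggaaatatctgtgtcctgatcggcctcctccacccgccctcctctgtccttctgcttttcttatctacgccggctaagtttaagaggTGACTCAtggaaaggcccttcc
C5ar1, chr7:16259339-16259588, minus strand: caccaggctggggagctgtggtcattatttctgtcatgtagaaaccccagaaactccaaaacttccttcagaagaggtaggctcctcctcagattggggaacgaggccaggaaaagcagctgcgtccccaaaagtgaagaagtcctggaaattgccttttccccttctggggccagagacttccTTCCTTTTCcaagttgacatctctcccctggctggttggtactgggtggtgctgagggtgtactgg
Cd55, chr1:130462745-130462994, minus strand: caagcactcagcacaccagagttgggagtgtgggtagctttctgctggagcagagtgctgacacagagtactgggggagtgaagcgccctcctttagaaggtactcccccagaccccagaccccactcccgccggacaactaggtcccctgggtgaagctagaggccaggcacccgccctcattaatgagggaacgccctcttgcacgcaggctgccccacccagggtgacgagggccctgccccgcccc
C3 held 1 C/EBP match, at bases 45 to 38 before the start, C3ar1 held 1 AP-1 match at bases 22 to 16, and C5ar1 held 1 IRF core match, on the opposite strand, at bases 66 to 58. No match of these 5 motifs lay in the windows of Cd55 or C1ra, and no member window held the NF-kB or GAS letters. None of the 3 matches overlapped another motif. Of all 32851 promoters in the table, 9.56% held a C/EBP match in a window of the same length, 6.75% an AP-1 match, 7.13% an IRF core match, 7.02% a GAS match and 3.90% an NF-kB match. A match is a description of letters, and factor binding was not measured.

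The libraries held between 29097558 and 33454344 counts. LPS replicate 2 stood apart in 16 genes that were over 32-fold higher there than in every other library, among them the seminal vesicle genes Svs2, Svs4 and Svs5. Together the 16 took 3.96% of its counts. Without LPS replicate 2, the log2 fold changes of the members moved by at most 0.12 (C2, to 1.41), and the same 8 members passed the test. The defining markers of kidney were present in each library, with summed CPM (counts put on one library total) of at least 1477 for 6 proximal tubule genes and at least 391 for 4 podocyte genes. The proximal tubule sum lay between 1477 and 1594 CPM in LPS and between 11405 and 12795 CPM in Control libraries. In whole tissue a lower number of cells of a type and less RNA per cell cannot be told apart.

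Activator genes were higher in LPS kidneys in all 5 cases, the regulators moved in opposite directions, and 1 of 2 receptor genes rose. In the test across 14219 genes (edgeR quasi-likelihood, Benjamini-Hochberg adjusted p under 0.05), 7 of the 9 members were higher, where 25.7% of all genes were higher, and 1 was lower, where 24.8% of all genes were lower. Among the members 6 rose at least 2-fold, against 8.24% of all genes. The LPS and Control libraries did not overlap in CPM for 8 members, as for 60.2% of all genes. The median log2 fold change was 2.18 over the activators and 0.86 over the regulators and receptors, beside 0.01 over all genes tested. With 5 and 4 genes in these sets, the medians are descriptions.

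**Figure D1:**
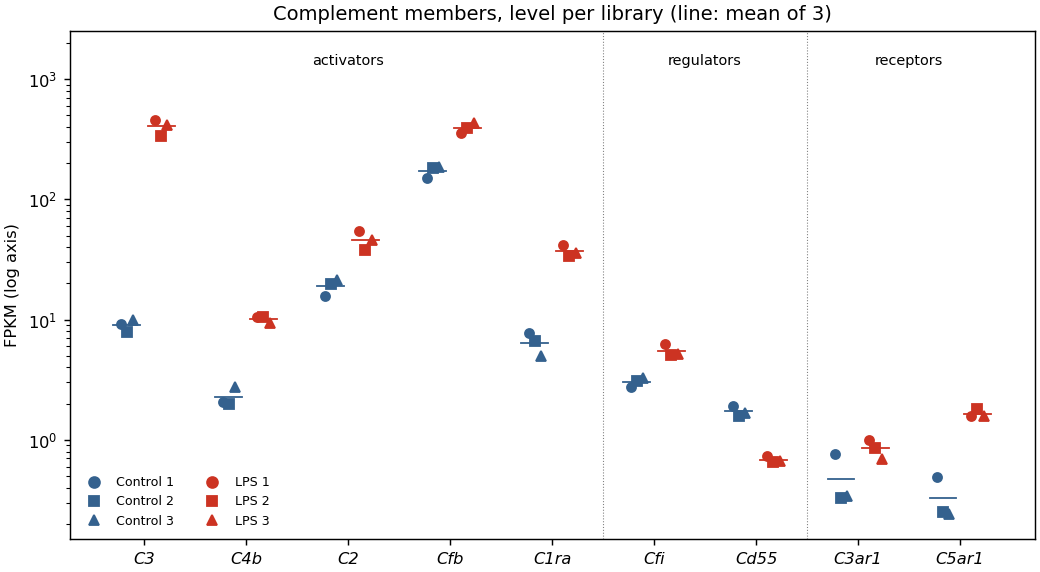
Level of each member in each library in FPKM (counts scaled by gene length and library total, log axis), with Control libraries in blue, LPS libraries in red and a line at each mean of 3. The groups are apart for all members but C3ar1, where Control replicate 1 (0.759 FPKM) lies above LPS replicate 3 (0.691 FPKM), and Cd55 alone of the 9 is lower in LPS kidneys.

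C3, the central component that all pathways cleave, showed the largest change of the 9. Its level was 459, 338 and 415 FPKM in LPS replicates 1, 2 and 3, and 9.19, 7.89 and 9.999 FPKM in Control replicates 1, 2 and 3. The groups were far apart, with all LPS libraries above all Control libraries. In CPM, C3 rose from 46.9 ± 5.43 to 2112 ± 306 (SD, n = 3 per group), a 45.1-fold rise with a log2 fold change of 5.49 ± 0.15 (SE) and an adjusted p of 5.03e-08 (edgeR). Only 78 of the 14219 genes tested had a larger log2 fold change. C3 alone took between 0.176% and 0.239% of all counts in LPS libraries and between 0.00411% and 0.00521% in Control libraries.

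C1ra, the protease that starts the classical cascade once C1q has bound, stood at 41.3, 33.8 and 35.7 FPKM in LPS replicates 1, 2 and 3 and at 7.68, 6.63 and 5.004 FPKM in Control replicates 1, 2 and 3. All LPS libraries lay above all Control libraries, and the log2 fold change was 2.53 ± 0.14 (SE), a 5.79-fold rise (adjusted p = 1.64e-06, edgeR). C4b, the gene of complement C4, stood at 10.6, 10.5 and 9.33 FPKM in LPS and at 2.05, 1.998 and 2.73 FPKM in Control replicates 1, 2 and 3. Its log2 fold change was 2.18 ± 0.13, a 4.52-fold rise (adjusted p = 2.27e-06, edgeR). The LPS libraries lay close together, with a coefficient of variation of 6.18%, against 19.1% among the Control libraries. C4a, a near-identical neighbour of C4b that RefSeq lists as a transcribed pseudogene, was not analysed here, and C1rb, a close copy of C1ra, had 35 counts over the LPS libraries and 8 over the Control libraries. Reads shared with such copies can be split or lost, so single values of C4b and C1ra are uncertain by an amount that was not tested.

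C2 and Cfb, neighbouring genes whose products are the protease subunits of the classical and alternative C3 convertases, rose by similar factors. C2 stood at 54.1, 37.8 and 45.6 FPKM in LPS replicates 1, 2 and 3 and at 15.7, 19.7 and 21.2 FPKM in Control replicates 1, 2 and 3. This was a log2 fold change of 1.29 ± 0.15, a 2.44-fold rise (adjusted p = 0.000145, edgeR). Cfb stood at 357, 390 and 433 FPKM in LPS replicates 1, 2 and 3 and at 151, 181 and 184 FPKM in Control replicates 1, 2 and 3. Cfb was the highest of all members in Control kidneys, and its log2 fold change was 1.20 ± 0.12, a 2.30-fold rise (adjusted p = 4.16e-05, edgeR). The group ranges of both genes were apart. GENCODE M21 annotates a read-through gene across C2 and Cfb and the gene Zbtb12 on the other strand within C2, so reads in the shared parts cannot be assigned with certainty.

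The regulators moved apart. Cfi, the gene of factor I, stood at 6.28, 5.11 and 5.17 FPKM in LPS replicates 1, 2 and 3 and at 2.73, 3.11 and 3.28 FPKM in Control replicates 1, 2 and 3. Its libraries did not overlap between the groups, and it rose 1.82-fold, with a log2 fold change of 0.87 ± 0.15 (adjusted p = 0.00122, edgeR). Cd55 stood at 0.729, 0.656 and 0.670 FPKM in LPS replicates 1, 2 and 3 and at 1.92, 1.57 and 1.68 FPKM in Control replicates 1, 2 and 3. All LPS libraries lay below all Control libraries. The gene fell from 21.0 ± 1.69 to 8.39 ± 0.387 CPM (SD, n = 3 per group), 2.50-fold lower, with a log2 fold change of -1.32 ± 0.11 (SE) and an adjusted p of 1.76e-05 (edgeR). Its counts were 287, 268 and 256 in LPS and 681, 597 and 628 in Control replicates 1, 2 and 3, spread over the longest gene length of the 9, which was 12210 bases as the deposited values imply. Cd55b, a close copy of Cd55, was at 0 in every LPS library and had 4 counts over the Control libraries.

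**Figure D2:**
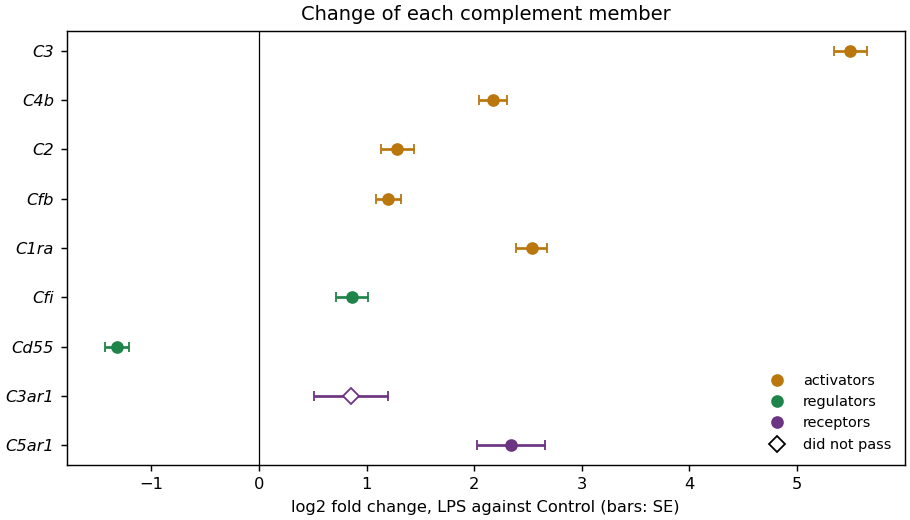
Log2 fold change of each member in LPS against Control kidneys (horizontal axis, points, with bars of 1 SE from the edgeR fit), coloured by role. C3 lies at 5.49, the other activators between 1.20 and 2.53, and Cd55 at -1.32, and the open diamond marks C3ar1 (0.85), which did not pass the test.

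Both receptors were low. C5ar1, the C5a receptor of neutrophils and macrophages, had 131, 154 and 127 counts in LPS replicates 1, 2 and 3 and 37, 20 and 19 counts in Control replicates 1, 2 and 3. The corresponding levels were 1.58, 1.79 and 1.58 FPKM in LPS and 0.495, 0.250 and 0.242 FPKM in Control kidneys, with no overlap. It rose 5.07-fold, with a log2 fold change of 2.34 ± 0.32 (SE; adjusted p = 0.000292, edgeR).

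C3ar1, the C3a receptor, had 139, 123 and 93 counts in LPS replicates 1, 2 and 3 and 95, 44 and 45 counts in Control replicates 1, 2 and 3. Control replicate 1 overlapped the LPS libraries in CPM. The log2 fold change was 0.85 ± 0.34 (SE) and did not pass (adjusted p = 0.0660, edgeR). Without Control replicate 1 it was 1.33 with an adjusted p of 0.00591. It also passed with DESeq2 (adjusted p = 0.0361), with limma-voom (0.0338) and with the replicate block (0.0260), and its adjusted p lay between 0.00591 and 0.199 over 16 alternatives.

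Marker genes of several leukocyte types also differed between the groups, and their part in the receptor values was not tested. The summed level of 13 macrophage and monocyte markers lay between 435 and 481 CPM in LPS libraries, and was 255, 174 and 163 CPM in Control replicates 1, 2 and 3. Control replicate 1, the highest Control library for C3ar1 and C5ar1, was thus also the highest in this sum. Plac8 alone made up 188, 228 and 261 CPM of the sum in LPS replicates 1, 2 and 3, and 15.01, 13.5 and 13.4 CPM in Control replicates 1, 2 and 3. Without Plac8 the sum was 247, 227 and 220 CPM in LPS and 240, 160 and 150 CPM in Control replicates 1, 2 and 3, so the groups overlapped, and Control replicate 1 lay above LPS replicates 2 and 3. Of the 13 markers 6 rose and 4 fell, and those that fell were Csf1r, Cx3cr1, Ccr2 and Mrc1. The 13 include the complement genes C1qa, C1qb and C1qc, and C1qa and C1qb were among those that rose. The summed level of 12 neutrophil markers lay between 76.4 and 184 CPM in LPS and between 3.22 and 3.81 CPM in Control libraries, and all 8 that were tested rose. In LPS replicate 2 Ltf alone, which encodes lactoferrin, stood at 83.5 CPM, against 7.77 and 6.48 CPM in LPS replicates 1 and 3. The neutrophil markers Ly6g, Mpo and Elane had at most 4 counts in any library. The dendritic cell sum lay between 0.777 and 1.66 CPM in LPS libraries. It was 14.2, 5.08 and 6.87 CPM in Control replicates 1, 2 and 3, and all 5 of its markers fell. The sum of 8 B and T cell markers lay between 1.90 and 3.29 CPM in LPS libraries. It was 18.6, 6.22 and 5.72 CPM in Control replicates 1, 2 and 3, and all 4 that were tested fell. Control replicate 1 was thus the highest library in the dendritic and the B and T cell sums as well. The mast cell genes Cpa3, Mcpt4, Tpsb2 and Cma1 had at most 8 counts in any library. Kit, the remaining gene of the 5 on this list, was the only 1 tested. Its counts were 576, 383 and 440 for LPS replicates 1, 2 and 3, and 652, 746 and 733 for Control replicates 1, 2 and 3. Kit fell, with a log2 fold change of -0.69 ± 0.15 (adjusted p = 0.00446, edgeR). Of 8 hepatocyte markers Alb, the serum albumin gene, stood between 7.94 and 8.29 CPM in LPS and between 8.91 and 12.9 CPM in Control libraries, Cps1 had at most 4 counts in any library, and 2 of 7 tested rose and 4 fell. The hepatocyte sum lay between 392 and 808 CPM in LPS and between 1313 and 2008 CPM in Control libraries, with most of it from Cyp2e1, which kidney also expresses.

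**Figure D3:**
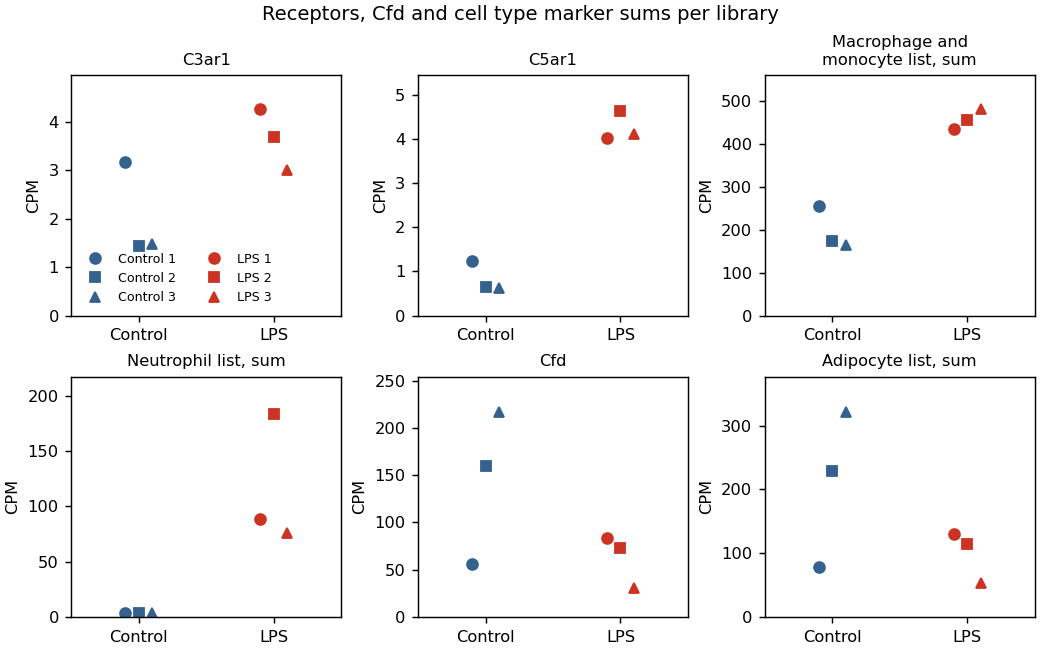
Level per library in CPM (vertical axes from 0) of C3ar1, C5ar1 and Cfd, and summed CPM of the macrophage and monocyte, neutrophil and adipocyte marker lists, with Control in blue and LPS in red. Control replicate 1 is the highest Control library for C3ar1 (3.18 CPM), C5ar1 (1.24 CPM) and the macrophage list (255 CPM), and the lowest for Cfd (56.3 CPM) and the adipocyte list, which includes Cfd (78.3 CPM).

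The order of levels per gene length changed between the groups. In Control kidneys Cfb (172 ± 18.0 FPKM, SD, n = 3) was followed by C2 (18.9 ± 2.88), C3 (9.03 ± 1.06), C1ra (6.44 ± 1.35), Cfi (3.04 ± 0.283), C4b (2.26 ± 0.411), Cd55 (1.72 ± 0.176), C3ar1 (0.477 ± 0.245) and C5ar1 (0.329 ± 0.144). The ranges of the neighbours Cfi and C4b, and of C3ar1 and C5ar1, overlapped in Control kidneys. In LPS kidneys the order was C3 (404 ± 61.2 FPKM, SD, n = 3), Cfb (394 ± 38.1), C2 (45.8 ± 8.12), C1ra (37.0 ± 3.91), C4b (10.2 ± 0.715), Cfi (5.52 ± 0.659), C5ar1 (1.65 ± 0.122), C3ar1 (0.849 ± 0.156) and Cd55 (0.685 ± 0.0386). C3 and Cfb, C2 and C1ra, and C3ar1 and Cd55 overlapped there. Cd55 went from rank 7 to rank 9 and C3 from rank 3 to rank 1. These ranks rest on the gene lengths that the deposited values imply. In CPM Cd55 stood at 21.0 in Control kidneys, above C1ra (17.7). In LPS kidneys it stood at 8.39 CPM, above C5ar1 (4.26) and C3ar1 (3.66).

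Ratios within a library set C3, the activator with the largest rise, beside each regulator without any scaling between libraries. No other activator was set against a regulator in this way. The log2 fold change of C3 itself was 5.49, against 1.20 to 2.53 for the other activators, 0.87 for Cfi and -1.32 for Cd55. These ratios therefore describe C3 and not the activators as a group. Gene length enters the size of each ratio but not its difference between the groups. C3 stood at 73.2, 66.2 and 80.2 times the FPKM of Cfi in LPS replicates 1, 2 and 3, and at 3.37, 2.54 and 3.04 times in Control replicates 1, 2 and 3. The difference in log2 ratio was 4.62. Against Cd55, C3 stood at 630, 516 and 619 times in LPS and at 4.80, 5.01 and 5.95 times in Control replicates 1, 2 and 3, a difference in log2 ratio of 6.81. In both pairs all 3 LPS libraries lay above all 3 Control libraries. The exact permutation test of each pair gave p = 0.10, the smallest that 3 against 3 libraries allow two-sided, and 0.167 after Benjamini-Hochberg adjustment over the 5 pairs.

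The ratio of the receptors per gene length crossed 1. In counts LPS replicate 1 stayed above 1, with 139 for C3ar1 and 131 for C5ar1. C3ar1 stood at 0.634, 0.477 and 0.438 times the FPKM of C5ar1 in LPS replicates 1, 2 and 3, and at 1.53, 1.32 and 1.42 times in Control replicates 1, 2 and 3. The log2 ratio fell by 1.48 (exact permutation p = 0.10, adjusted 0.167). Cfb stood at 6.60, 10.3 and 9.50 times C2 in LPS and at 9.67, 9.16 and 8.67 times in Control replicates 1, 2 and 3. LPS replicate 1 was the lowest and LPS replicate 2 the highest, and the difference in log2 ratio was -0.08 (exact permutation p = 0.90), or 0.11 without LPS replicate 1. C4b stood at 0.257, 0.311 and 0.261 times C1ra in LPS and at 0.266, 0.301 and 0.546 times in Control replicates 1, 2 and 3, a difference in log2 ratio of -0.36 (exact permutation p = 0.40). Without Control replicate 3, the highest of the 6, that difference was -0.04.

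**Figure D4:**
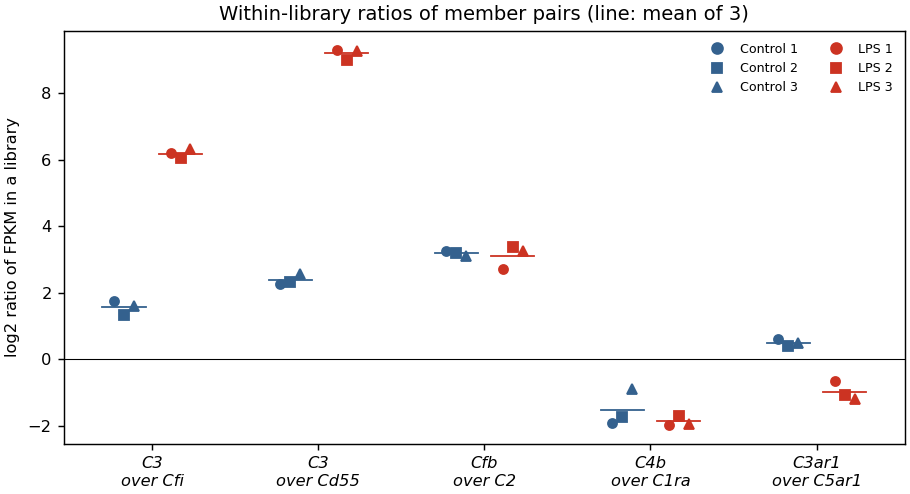
Log2 ratio of FPKM between pairs of members within each library (vertical axis), Control in blue, LPS in red, with a line at each mean of 3. The pairs C3 over Cfi and C3 over Cd55 are higher in all LPS libraries, C3ar1 over C5ar1 is above 0 in all Control and below 0 in all LPS libraries, and the groups overlap for Cfb over C2 and C4b over C1ra.

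Other complement genes moved in both directions. A list of 52 other complement genes, from textbook membership, had 48 in the count tables, of which 35 passed the filter, 11 rose and 11 fell, where 25.7% of all genes were higher and 24.8% lower. Their median log2 fold change was 0.05. Among classical and lectin pathway genes 3 of 10 tested rose and 3 fell. Masp1, a protease of the lectin pathway, rose by a log2 fold change of 1.57 ± 0.25 (SE). The C1q chains C1qb and C1qa rose by 0.76 ± 0.16 and 0.66 ± 0.18, and C1qc stood at 0.43 ± 0.22 and did not pass. The C1q genes are also macrophage markers. C1s1, the gene of the protease that C1r activates, stood at 0.30 ± 0.20 and did not pass, with an adjusted p of 0.242 (edgeR). With the replicate block C1qc and C1s1 passed (adjusted p = 0.0241 and 0.0341, edgeR). Colec12 and Colec11, collectins that bind sugars, fell, with log2 fold changes of -1.19 ± 0.13 and -2.57 ± 0.37, as did C1rl, with -0.29 ± 0.10. Colec11 was low, with 17 counts over the LPS and 97 over the Control libraries. The call of C1rl ended with the block (adjusted p = 0.0503, edgeR) and without the low-count filter (0.0505, edgeR).

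In the alternative pathway Cfp, the gene of properdin, which steadies the convertase, rose by a log2 fold change of 0.89 ± 0.30. Its call ended on the log2(FPKM + 1) scale without a filter on mean FPKM (adjusted p = 0.0518, limma). Cfd, the gene of factor D, which cleaves factor B and is also called adipsin, did not pass. LPS replicates 1, 2 and 3 had 83.9, 73.4 and 31.0 CPM, and Control replicates 1, 2 and 3 had 56.3, 159 and 216 CPM (adjusted p = 0.0614, edgeR). The 5 other adipocyte markers summed to 46.7, 41.7 and 22.9 CPM in LPS and to 22.0, 69.0 and 105 CPM in Control replicates 1, 2 and 3, with Control replicate 1 again the lowest and Control replicate 3 the highest. Their part in the value was not tested.

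Among terminal genes, which form the membrane attack complex, Hc, the gene of C5, rose from 10 counts in Control to 129 counts in LPS libraries, a log2 fold change of 3.57 ± 0.55. The C8 chains C8a and C8g fell, with log2 fold changes of -1.65 ± 0.26 and -1.44 ± 0.14. C6 (0.64 ± 0.61) and C7 (0.52 ± 0.26) did not pass. C9, which forms the ring of the complex, was not tested, with 14 counts over the LPS and 15 over the Control libraries.

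Of 6 tested fluid-phase regulators 3 rose and 0 fell, where 25.7% of all genes were higher and 24.8% lower. With 6 genes this count is a description. Clu, the gene of clusterin, which keeps the terminal complex from inserting, had 2266, 3934 and 1918 CPM in LPS replicates 1, 2 and 3, and 261, 275 and 258 CPM in Control replicates 1, 2 and 3. All LPS libraries were above all Control libraries, with LPS replicate 2 the highest, and the log2 fold change was 3.35 ± 0.25. Serping1, the inhibitor of C1r and C1s, rose by 1.16 ± 0.18. Cpn2, the carrier subunit of the carboxypeptidase that trims C3a and C5a, rose by 2.003 ± 0.65. Cpn2 was low, with 162 counts over the LPS and 38 over the Control libraries. Cpn1, the gene of the other subunit, did not pass, with a log2 fold change of -0.16 ± 0.13 (adjusted p = 0.337, edgeR). It had 5526 counts over the LPS and 5823 over the Control libraries.

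Of 6 tested membrane regulators beside Cd55, 0 rose and 4 fell, where 24.8% of all genes were lower, and with 6 genes this count is a description. Cd59b and Cd59a, which block C9, fell, with log2 fold changes of -1.79 ± 0.25 and -0.46 ± 0.09, as did the membrane inhibitors Susd4 and Csmd1, with -0.98 ± 0.21 and -1.76 ± 0.59. Mean CPM in LPS and Control kidneys was 1.20 and 4.16 for Cd59b, 39.1 and 53.9 for Cd59a, and 4.45 and 8.78 for Susd4. Csmd1 had 12 counts over the LPS and 39 over the Control libraries. The call of Csmd1 ended with DESeq2 (adjusted p = 0.0864), without the low-count filter (0.0551, edgeR) and on both log2 FPKM scales (0.120 and 0.0675, limma). Cr1l, also called Crry, the main C3 regulator of rodent cell surfaces, stood at 0.19 ± 0.09 and did not pass. Its mean level was the highest of the 6, at 60.1 CPM in LPS kidneys, and was 52.5 CPM in Control kidneys. Among the other receptors 3 of 6 tested rose and 2 fell, where 25.7% of all genes were higher and 24.8% lower. Itgam and Itgb2, the chains of complement receptor CR3, rose by 3.43 ± 0.32 and 1.03 ± 0.25, and Cd93 by 1.10 ± 0.18. Cr2, a receptor of B cells, fell, with a log2 fold change of -2.37 ± 0.37, as did Itgax, a chain of complement receptor CR4, with -1.52 ± 0.51. The 4 B and T cell markers tested also fell, Itgax is itself one of the 5 dendritic cell markers, and the part of these cells in both values was not tested. The call of Itgax ended on both log2 FPKM scales (adjusted p = 0.106 and 0.0736, limma). C5ar2, the other C5a receptor, was not tested, with 9 counts over the LPS and 21 over the Control libraries.

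The adjusted p of the 22 other complement genes that passed lay between 7.75e-06 and 0.0390 (edgeR). The calls of C1rl, Csmd1, Itgax, Cfp and Cpn2 ended in 3 or more of the 6 fits that leave out 1 library, and that of C1qa without Control replicate 2 (adjusted p = 0.0510, edgeR). Calls were gained without Control replicate 1 for C1qc, C1s1, C7 and Cfd, and without LPS replicate 1 for Cr1l and Cpn1. Fold changes that moved over 1.5 times were those of Csmd1 (-2.69 without LPS replicate 2), Cpn2 (2.75 without Control replicate 3) and C6 (1.56 without Control replicate 1).

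**Figure D5:**
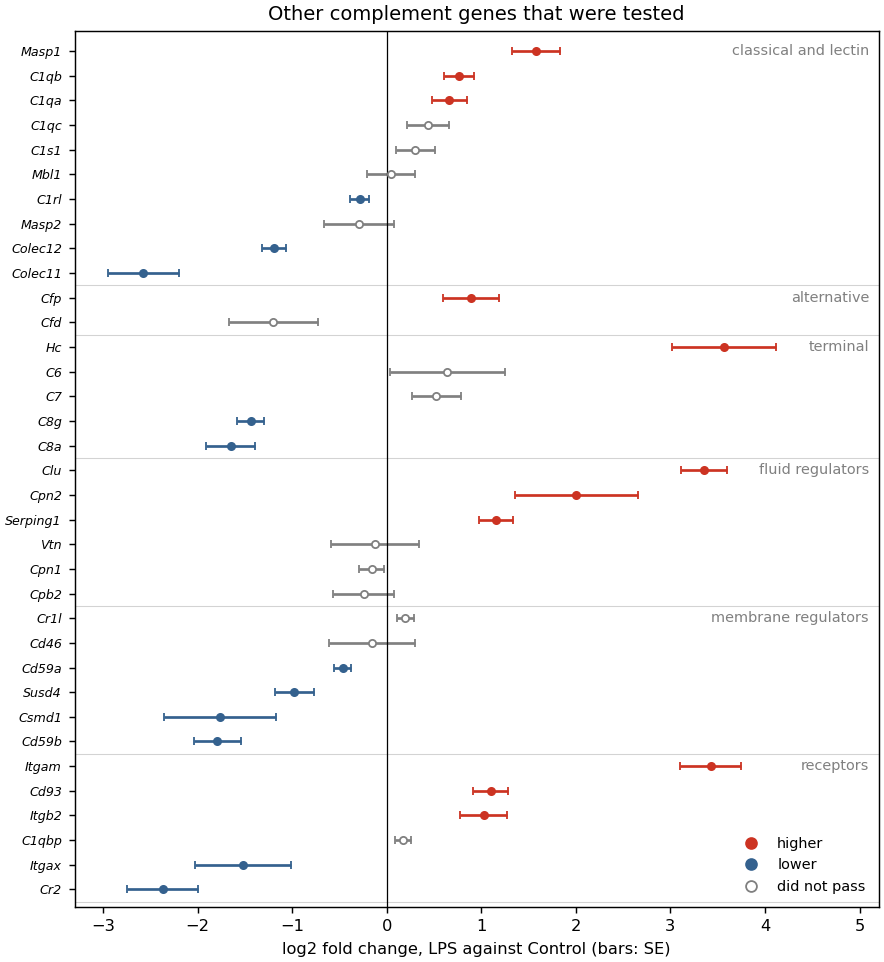
Log2 fold change of the 35 other complement genes tested (horizontal axis, points with bars of 1 SE, edgeR), grouped by role and coloured by whether they were higher (red), lower (blue) or did not pass (open grey). Hc, Itgam and Clu lie highest, above 3, and none of the membrane regulators that passed lies above 0.

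The genes whose centred log2 CPM over the 6 libraries lay nearest to a member's are given here, by Euclidean distance among 12767 genes. The members were left out of the search, so no member could be a nearest gene. None of the 9 closest is on the list of other complement genes. Nearest to C3 was Cd14, the LPS co-receptor, at a distance of 0.23, then Spp1, which encodes osteopontin, at 0.63. Nearest to C4b was Cebpb, a transcription factor, at 0.19, and nearest to C1ra was Slc16a1, a lactate carrier, also at 0.19. Fbxo6 lay nearest to Cfb (0.18), Gadd45g to C2 (0.25), Slc16a10 to Cfi (0.09) and Paqr7 to Cd55 (0.13). For the receptors these were Bin2 for C3ar1 (0.26) and Sting1 for C5ar1 (0.29). With 2 groups of 3 libraries, such a distance mainly reflects a similar difference between the groups.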

How the data were processed

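RNA was sequenced from the kidneys of 6 mice, 1 library each, with groups taken from the sample titles. The authors deposited a raw count and an FPKM value per gene symbol. The tools named, per the submitters' processing notes and without roles, are HISAT2, HTSeq, SAMtools, R 3.2.0 and DESeq2. The genome build, annotation and strand setting were not given in the sources used here. The deposited FPKM equalled count over gene length and library total in 106077 of 106080 values (relative tolerance 1e-06). Counts of LPS and Control libraries were compared with the two-sided quasi-likelihood test of edgeR 4.0.16 (R 4.3.3) after filterByExpr (minimum count 10, minimum total 15) and TMM scaling. The filter kept 14219 genes and removed 3461, and p-values were adjusted over all genes kept. SE is the log2 fold change over the square root of the F statistic, and CPM uses TMM-scaled library sizes. Nearest genes had a mean CPM of at least 1 (log2 CPM, prior count 2, no predicted or clone names, no members). Counts were simulated for LPS against Control over 14219 genes, of which 200 were changed. In them the test recovered 40.3%, 77.6% and 100% of genes changed 1.5-fold, 2-fold and 4-fold, and 9 of 154 calls were unchanged genes. In the data 3658 genes were higher and 3527 lower, so these shares need not hold there. Chi-square per degree of freedom was 11.1 or more between replicates of a group, so each replicate was counted on its own. The members, the other complement genes, the marker lists, the motifs and the alternatives were chosen with earlier results of these data known. Named are all members, other complement genes by role, and the nearest genes, of which the closest is given for each member and the second for C3. Alternatives were other scalings and filters, DESeq2 1.42.0, limma 3.58.1 (voom, and log2(FPKM + 1) or log2(FPKM + 0.1)), a fit with the replicate number as a block, and fits without 1 library or without the 16 genes of LPS replicate 2. One gene is not reported here and was left out of the list of other complement genes and its counts. Sums of macrophage markers without Plac8 and of adipocyte markers without Cfd were added after seeing the data.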

Additional observations from a re-analysis of the deposited data

How the results depend on the processing

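Across the 17 alternatives, 147 of 151 refitted member fold changes kept their direction and side of the threshold, and none reversed. The 4 that did not were those of C3ar1, which passed with DESeq2 (log2 fold change 0.85), limma-voom (0.94), the replicate block (0.92) and without Control replicate 1 (1.33, in a range of 0.65 to 1.33 over the libraries left out). The replicate block gave 8 higher members and changed no other member's call. Among the other complement genes it gave 13 higher and 10 lower, with C1qc and C1s1 gained and C1rl lost. Nothing in the labels ties same-numbered mice together, and the deviations of same-numbered libraries correlated by 0.05, -0.05 and -0.0020. Under the block 3414 genes were higher and 3331 lower, against 3658 and 3527 without it. The activators' median was 1.78 on the log2(FPKM + 1) scale, with or without a mean FPKM of at least 1, and 2.09 to 2.34 when 1 library was left out. The median of regulators and receptors was 0.51 on log2(FPKM + 1), a scale that shrinks low genes, and -0.0022 with a mean FPKM of at least 1, which removes both receptors. It was 0.75 to 1.05 when 1 library was left out. Of the other complement genes 11 were lower with edgeR, 9 on log2(FPKM + 1), and 6 on that scale with the filter, which tests fewer of the list. Leaving out 1 library gave -0.21 to 0.11 for the log2 ratio difference of Cfb over C2. The receptors had 19 to 154 counts per library, the lowest counts of the members, and C3ar1 varied by 48.9% (coefficient of variation of CPM) among Control libraries.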
